A study of Pyrus pyrifolia with 6 samples.

Results

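The 31 genes described here lie on scaffold NW_008988726.1 of the genome of Chinese white pear (*Pyrus* × *bretschneideri*), between position 16546 and position 221694, and are 31 of the 42966 genes for which expression was deposited. A scaffold is a stretch of genome sequence that was assembled as a single piece, so that its genes are neighbors. All genes that the gene table places on this scaffold were taken, except 2 loci that came from the authors' own transcript assembly and are described apart. RNA-Seq was done on fruit skin of ‘Suisho’ pear, the green-skinned bud mutant, and of russet ‘Niitaka’ pear, the line from which it arose. Both are sand pears (*Pyrus pyrifolia*) grown in an orchard, and both were sampled at 80 d. The skin of 10 fruits was combined for each of the 3 samples of a line. Green skin has libraries B1, B2 and B3 and russet skin has libraries A1, A2 and A3, and the legend of a correlation plot in the paper's supplement gives the meaning of both letters. The sources used here do not give the assembly version behind the positions. No table used here gives these 31 genes a name or a description, so they are called by their NCBI gene numbers.

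A bud mutant arises from a shoot that carries a mutation and is propagated by grafting, so that most of its genome is that of its parent. In green pear skin the epidermis is covered by a cuticle of cutin and wax, whereas russet skin is covered by a periderm, i.e., layers of dead cork cells whose walls hold suberin. Gene expression was measured as FPKM, by its name fragments on a gene, scaled by exon length and by sequencing depth. Levels of different genes can thus be set beside each other. Each line is a single cultivar, and the skin-type mutation cannot be told apart from any other difference between both lines. In whole skin, fewer cells of a type and less RNA per cell cannot be told apart either. The scaffold was chosen because the FPKM of its genes was lower in green than in russet skin in these same libraries, and this difference is therefore given as a description. Calls of a fit across all genes are counted for the scaffold's genes only beside their share over all genes, and since the genes were chosen on the same contrast these calls test nothing about them.

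The libraries rested on 31381552 to 42729578 reads, which were recovered from FPKM and gene length. The skin labels were checked with 6 genes that the paper names. The 3 cuticle genes, among them a cytochrome P450 of the CYP86A family, which makes cutin monomers, were higher in every green library than in every russet library, with a mean of 98.8 FPKM in green against 1.36 FPKM in russet skin for that gene, whereas the 3 periderm genes, among them a feruloyl transferase-like gene that acts on suberin precursors, were lower in every green library, with a mean of 1.01 FPKM in green against 54.8 FPKM in russet skin for the named one. The paper chose these genes on the same libraries.

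Of the 31 genes, 30 had at least 1 read, and all 30 of these were on average lower in green than in russet skin, as were 50.2% of the 30161 genes of the whole table that averaged 0.1 FPKM or more. The FPKM of the 31 genes summed to 44.3, 43.2 and 45.3 in B1, B2 and B3, against 227, 220.3 and 261 in A1, A2 and A3. The sum in green skin was thus 18.7% of that in russet skin, with 44.3 ± 1.08 FPKM in green and 236 ± 22.2 FPKM in russet libraries (SD, n = 3 each), and the libraries of both lines did not overlap. No gene had a mean above 10 FPKM in green skin, where the highest mean was 7.0 FPKM, whereas 9 genes had one in russet skin, where the highest was 43.6 FPKM. In green skin, 20 of the 31 genes had a mean under 1 FPKM, against 8 in russet skin. The shares of all genes above 10 FPKM and under 1 FPKM in each line were not counted, so these counts are descriptions.

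Averaged over both lines, 0.1 FPKM or more was reached by 28 of the 31 genes, and 8 of these reached it through russet skin alone, with a mean under 0.1 FPKM in green skin. All 3 green libraries lay below all 3 russet libraries in 23 of the 28 genes, where 17.2% of all 30161 genes with such a mean did, and in the other 5 the libraries of both lines overlapped. With limma on log2(FPKM + 0.1) and an adjusted p under 0.05, 23 of the 28 were called lower in green skin and 0 higher, where of all genes 8.05% were called lower and 15.3% called in either direction. Green skin had at most 50% of the russet mean in 23 genes, beside 10.6% of all genes, and at most 10% in 12 genes, beside 2.81%, where 1 of the 12, 108866228, is held there by only 10 russet reads. As the scaffold was chosen on this difference, nothing is read from these counts. The median log2 difference, green minus russet, was -2.23 over the 28 genes and -0.0032 over all 30161. With genes without a green read put at their bound from 3 reads, the median of the 28 was -2.23 as well. Each of those genes stayed on its side of the median, so this value could not move.

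**Figure D1:**
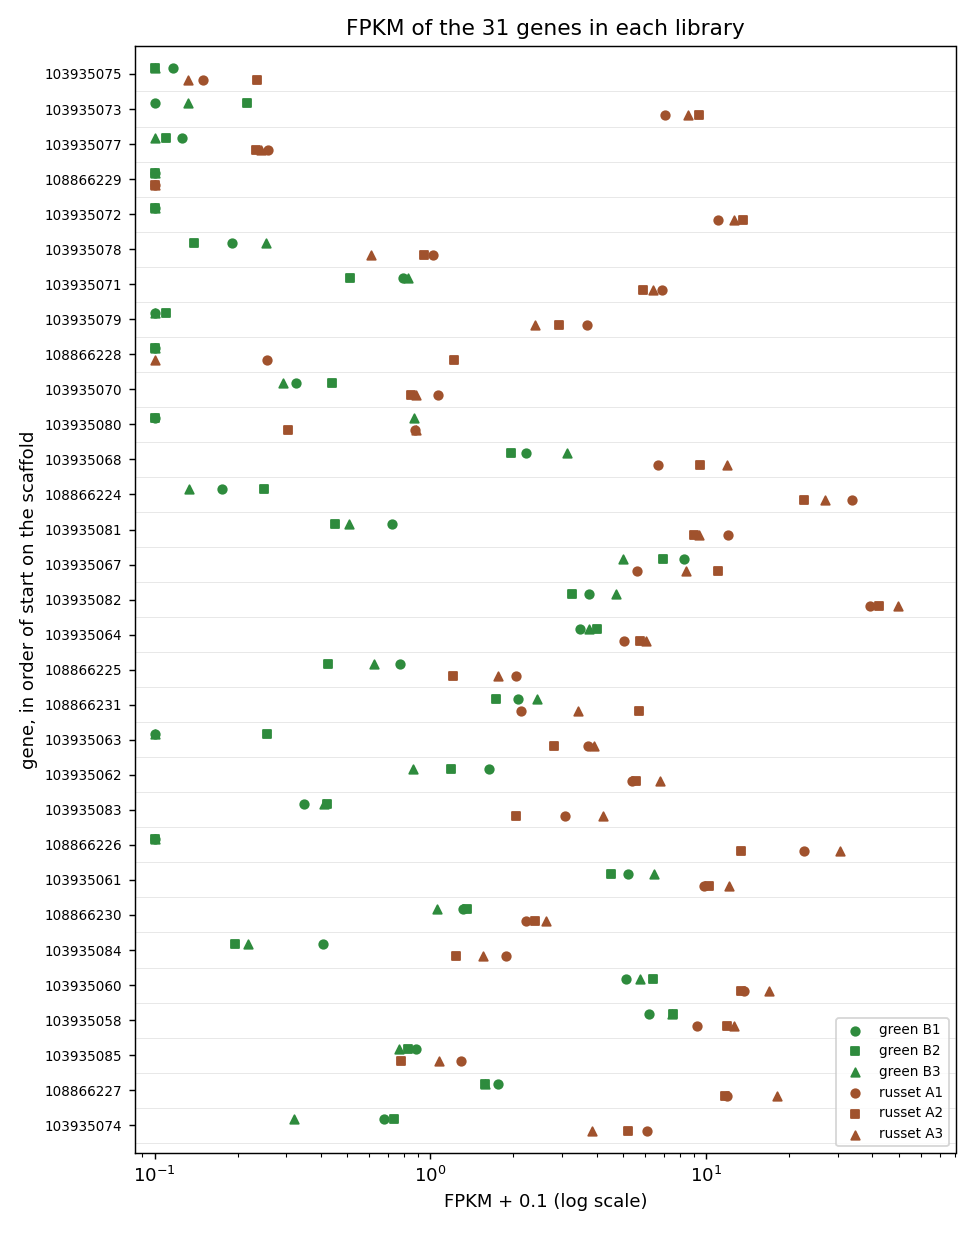
FPKM + 0.1 on a log scale of the 31 genes, from top to bottom in order of start, with 1 point for each of the 3 green (B) and 3 russet (A) libraries. The green points lie left of the russet points in 25 genes, overlap with them in 5, and in 108866229 all 6 points stand at 0.1, i.e., at no read.

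The level that remained in green skin differed widely between neighbors. As a share of the russet mean it ran from 0% to 80.6% among the 28 genes, with a median of 12.2%. The largest space without one of the 31 genes, 15949 bases, parts them into 14 genes up to position 113316 and 17 genes from position 129266. Of the 11 genes up to position 113316 averaging 0.1 FPKM or more, 7 kept at most 10% of the russet level and 1 at least 35%, whereas of the 17 genes behind the space these counts were 5 and 8. One of the 7, 108866228, had no green read but 10 russet reads, a floor of 3 reads allows it up to 32.8%, and its libraries overlap. The gene at 35% or more, 103935080, had green reads in B3 alone. Leaving out each library, an alternative chosen after seeing the data, gave 6 to 9 genes at or under 10% and 0 to 1 at or over 35% up to position 113316, and 4 to 5 and 8 to 9 genes behind the space. Without B3 the counts up to position 113316 were 9 and 0. The stretches and the limits of 10% and 35% were set after the values were seen, so this is a description.

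**Figure D2:**
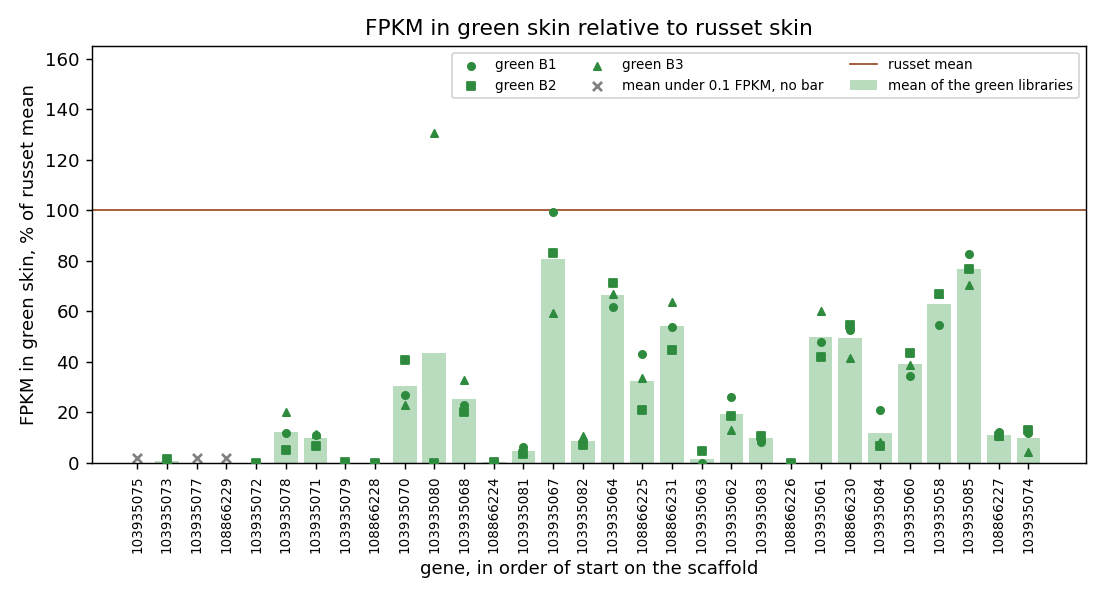
FPKM in green skin as a percentage of the russet mean (line at 100%), by gene in order of start. Bars are the mean of the green libraries and points are B1, B2 and B3, each divided by the russet mean; bars of at most 10% and bars of 39.0% to 80.6% stand side by side, and the 3 genes with a mean under 0.1 FPKM have no bar.

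The stretch up to position 113316 began with a scarce gene, 103935075 (16546 to 19506), which had 2 reads in green skin and 26 in russet skin. Beside it, 103935073 (19956 to 22073) had 0, 0.116 and 0.0326 FPKM in B1, B2 and B3, against 7.0, 9.34 and 8.48 FPKM in A1, A2 and A3. This gene was thus well measured in russet skin, from 969 reads, and nearly absent from green skin, with 5 reads, or 0.597% of the russet mean (log2 difference -5.87), and 0.197% without B2. Next came 103935077 (31135 to 34425), with 4 reads in green and 48 in russet skin, and 108866229 (40777 to 48238), a short gene of 90 bases without a read in any library.

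No read fell on 103935072 (51661 to 56305) in B1, B2 or B3, whereas it had 10.9, 13.5 and 12.5 FPKM in A1, A2 and A3. With a floor of 3 reads summed over B1 to B3, its level was at least 684-fold lower in green skin. That bound covers counting error only, with each read taken as independent. It is too strong even for that, as both reads of a pair appear to have been counted. Of the 3 genes that had reads in russet skin only, 103935072 had the most, 2243. After it, 103935078 (60370 to 63270) averaged 0.0946 ± 0.0575 FPKM in B1 to B3 and 0.761 ± 0.220 FPKM in A1 to A3 (SD, n = 3 each).

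Gene 103935071 (69511 to 73066) had 0.699, 0.411 and 0.733 FPKM in B1, B2 and B3 and 6.80, 5.79 and 6.33 FPKM in A1, A2 and A3. Its level in green skin was low but present in every library, at 9.74% of the russet mean, from 87 reads. By contrast, 103935079 (74229 to 77253) next to it had 1 read in green skin, in B2, against 3.58, 2.83 and 2.30 FPKM in A1, A2 and A3, from 995 reads. The share that remained was 0.110% by reads, with an exact Clopper-Pearson 95% interval of 0.00278% to 0.613%. That interval covers counting error only and takes each read as independent, so it is too narrow where both reads of a pair were counted.

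Between 83776 and 102878 lay 3 genes of low expression. Gene 108866228 had no read in green skin and 10 in russet skin, 9 of them in A2 and none in A3, so that its libraries overlap. The gene on the other strand that overlaps its end, 103935070 (100552 to 102042), averaged 0.253 ± 0.0782 FPKM in B1 to B3 and 0.836 ± 0.116 FPKM in A1 to A3 (SD, n = 3 each). In 103935080 (102336 to 102878), all 11 green reads came from B3, so that a single green library sets the 43.5% that remained, which is 0% without B3, and the libraries of both lines overlap. It averaged 0.257 ± 0.445 FPKM in B1 to B3 and 0.590 ± 0.333 FPKM in A1 to A3 (SD, n = 3 each).

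The last genes of this stretch were expressed more strongly. Gene 103935068 (104263 to 109160) had 2.12, 1.86 and 3.02 FPKM in B1, B2 and B3, against 6.57, 9.37 and 11.8 FPKM in A1, A2 and A3, and kept 25.2% of the russet level. Its neighbor 108866224 (109377 to 110321), whose start lies 216 bases behind its end, had 0.0762, 0.150 and 0.0337 FPKM in the green and 33.6, 22.5 and 26.9 FPKM in the russet libraries. With a mean of 27.7 FPKM it was among the most abundant of the 31 genes in russet skin, and 0.313% of that was left in green skin, from 9 reads against 3049 (log2 difference -7.25), and 0.199% without B2. Gene 103935081 (110491 to 113316) followed with 0.623, 0.350 and 0.408 FPKM in B1, B2 and B3 and 11.9, 8.92 and 9.28 FPKM in A1, A2 and A3, i.e., 4.59% of the russet mean.

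The stretch from position 129266 opened with the gene that differed least. Gene 103935067 (129266 to 133063) had 8.22, 6.88 and 4.90 FPKM in B1, B2 and B3, against 5.50, 11.0 and 8.36 FPKM in A1, A2 and A3. These ranges overlap, and 80.6% of the russet mean was present in green skin. Only 1674 bases separate it from 103935082 (134738 to 137324), the most abundant of the 31 genes in russet skin, which had 3.66, 3.15 and 4.59 FPKM in the green and 39.1, 42.2 and 49.5 FPKM in the russet libraries. There 8.72% remained (log2 difference -3.49), measured from 601 reads in green and 7656 in russet skin. The next gene, 103935064 (140885 to 144044), was again close between lines, with 3.39, 3.91 and 3.67 FPKM in B1, B2 and B3 and 4.91, 5.65 and 5.92 FPKM in A1, A2 and A3, or 66.5%.

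Genes 108866225 (144983 to 157460) and 108866231 (149663 to 150219) lie on opposite strands, with 108866231 within the span of 108866225. The libraries of 108866225 had 0.673, 0.326 and 0.527 FPKM in green and 1.93, 1.10 and 1.66 FPKM in russet skin, without overlap. For 108866231 they had 1.97, 1.63 and 2.33 FPKM in green and 2.03, 5.60 and 3.34 FPKM in russet skin, where A1 lay within the green range. The genes kept 32.5% and 54.1% of the russet mean.

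Another nested pair differed more. Gene 103935063 (168647 to 176183) had reads in a single green library, at 0.155 FPKM in B2, against 3.62, 2.70 and 3.81 FPKM in A1, A2 and A3, and by reads 1.51% remained (exact 95% interval 0.309% to 4.47%). Within its span on the other strand, 103935062 (170705 to 174756) had 1.53, 1.09 and 0.768 FPKM in B1, B2 and B3 and 5.29, 5.48 and 6.72 FPKM in A1, A2 and A3, which is 19.3%. The sources used here do not say whether the counting used the strand, and without it reads of both genes cannot be told apart where their exons meet. The same holds for the other 4 overlapping pairs of the scaffold.

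The next 3 genes again had very different shares of the russet level left, 9.77%, 0% and 49.9%. Gene 103935083 (177863 to 179803) had 0.248, 0.323 and 0.312 FPKM in B1, B2 and B3, against 2.98, 1.95 and 4.11 FPKM in A1, A2 and A3. Its end overlaps 108866226 (179736 to 180224) on the other strand, which had no read in green skin and 22.6, 13.3 and 30.5 FPKM in A1, A2 and A3. That gene was at least 319-fold lower in green skin, by the same floor of 3 green reads. Its neighbor 103935061 (181263 to 186403) had 5.09, 4.43 and 6.37 FPKM in the green and 9.75, 10.1 and 12.0 FPKM in the russet libraries. Within it, on the other strand, 108866230 (182804 to 184006) had 1.21, 1.26 and 0.955 FPKM in B1, B2 and B3 and 2.12, 2.28 and 2.52 FPKM in A1, A2 and A3. Both genes of this pair thus kept nearly the same share, as 108866230 stood at 49.5%.

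Gene 103935084 (186668 to 189640) averaged 0.173 ± 0.116 FPKM in B1 to B3 and 1.46 ± 0.322 FPKM in A1 to A3 (SD, n = 3 each), or 11.9% of the russet mean. Without B1 this share was 7.31%, below the limit of 10% used for the counts. The 3 genes behind it kept far more. Gene 103935060 (191874 to 194774) had 5.0, 6.33 and 5.65 FPKM in the green and 13.6, 13.2 and 16.7 FPKM in the russet libraries, or 39.0%. Next to it, 103935058 (197479 to 198586) had 6.09, 7.46 and 7.44 FPKM in B1, B2 and B3 and 9.15, 11.8 and 12.5 FPKM in A1, A2 and A3, or 62.7%. Gene 103935058 had the highest mean of the 31 in green skin, 7.0 ± 0.785 FPKM (SD, n = 3). In 103935085 (199050 to 211915) the libraries overlapped, and their means were 0.728 ± 0.0585 FPKM for green and 0.949 ± 0.254 FPKM for russet skin (SD, n = 3 each).

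At the end of the scaffold the share was low again. Gene 108866227 (217126 to 218382) had 1.66, 1.47 and 1.48 FPKM in B1, B2 and B3, against 11.8, 11.6 and 17.9 FPKM in A1, A2 and A3. Its green libraries lay close together, at 11.2% of the russet mean. The last gene, 103935074 (218513 to 221694), had 0.580, 0.639 and 0.220 FPKM in the green and 5.97, 5.10 and 3.74 FPKM in the russet libraries, i.e., 9.72%.

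The paper's KEGG table of differentially expressed genes, in the cells used here, names 4 of the 31 genes, all under RNA degradation. In that pathway messenger RNAs lose their poly(A) tail and cap and are broken down. Pathways whose gene list was cut short in the copy used here were not searched, so others may name genes of the scaffold too. The 4 genes are 103935073, 103935082, 103935063 and 108866226, and the table ties the first 3 to the same apple gene. Genes tied to the same apple gene may be alike in sequence, and the sources used here do not say how reads that match several genes were assigned, so their levels are uncertain to that extent. In green skin these 4 genes kept 0.597%, 8.72%, 1.53% and 0% of the russet level. The other 13 genes under this heading lie on other scaffolds, and 4 of them had a lower and 9 a higher mean in green skin. The paper chose this list on the same libraries, so it is not independent evidence of a direction.

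The 2 loci of the authors' transcript assembly showed the same order of the lines. Novel00621 (23983 to 29189) had 1.74, 1.52 and 1.62 FPKM in B1, B2 and B3, against 4.14, 5.05 and 6.25 FPKM in A1, A2 and A3. It kept 31.6% of the russet level although it lies between 103935073 and 103935077, of which little was read in green skin. Novel00622 (125443 to 128759), in the largest space between the 31 genes, had 0.165, 0.0324 and 0.183 FPKM in B1, B2 and B3 and 1.38, 1.80 and 2.96 FPKM in A1, A2 and A3, or 6.19%.

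In russet skin the genes of the scaffold were of ordinary abundance. Their median there, 5.66 FPKM over the 28 genes, was close to the 5.95 FPKM of all 30161 genes, and higher than the level of 48.9% of them. In green skin their median was 0.494 FPKM, against 5.93 FPKM over all genes, and higher than the level of 14.8%. Of the 28 genes, 8 reached the minimum mean through russet skin alone and 0 through green skin alone. As the scaffold was also chosen on this difference, both medians are descriptions. The minus strand held 22 of the 31 genes, and 49.7% of all genes in the table. The median length was 1316 bases, against 1571 over all genes compared. Across the 28 genes, the share of the russet level in green skin had a Spearman correlation of -0.20 with the russet level, of -0.03 with gene length and of 0.39 with the order along the scaffold. The genes come from the same 6 libraries, and the russet level also enters the share, so these values are descriptions.

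**Figure D3:**
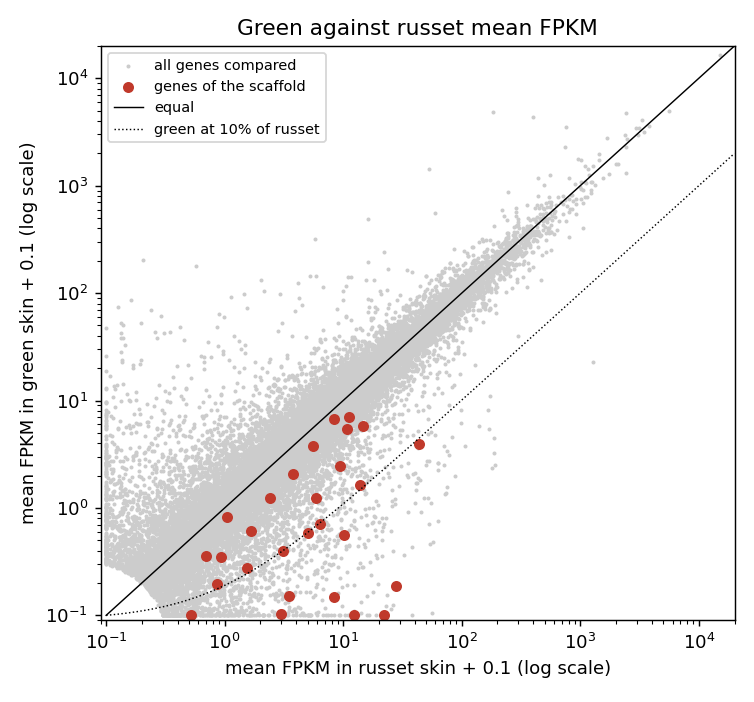
Mean FPKM + 0.1 in green skin (vertical, log scale) against russet skin (horizontal, log scale) for the 30161 genes that averaged 0.1 FPKM or more (grey) and 28 genes of the scaffold (red). The red points all lie below the line of equal means, 12 of them at or below the dotted line where green skin has 10% of the russet mean.

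Scaffolds NW_008988220.1 and NW_008988240.1 were set beside this one. They had likewise been chosen on this difference, so that no test was made between them. Their 94 and 94 genes averaging 0.1 FPKM or more had median log2 differences of -0.95 and 0.56, beside -2.23 here. The median share of the russet level in green skin was 51.5% on NW_008988220.1 and 146% on NW_008988240.1. Among the 425 scaffolds with at least 20 such genes, NW_008988726.1 had the lowest median, NW_008988220.1 the next and NW_008988721.1 the third, at -0.61, whereas NW_008988240.1 had the highest. All 28 genes here had a lower mean in green skin, as did 83 of 94 genes on NW_008988220.1 and 19 of 94 on NW_008988240.1.

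**Figure D4:**
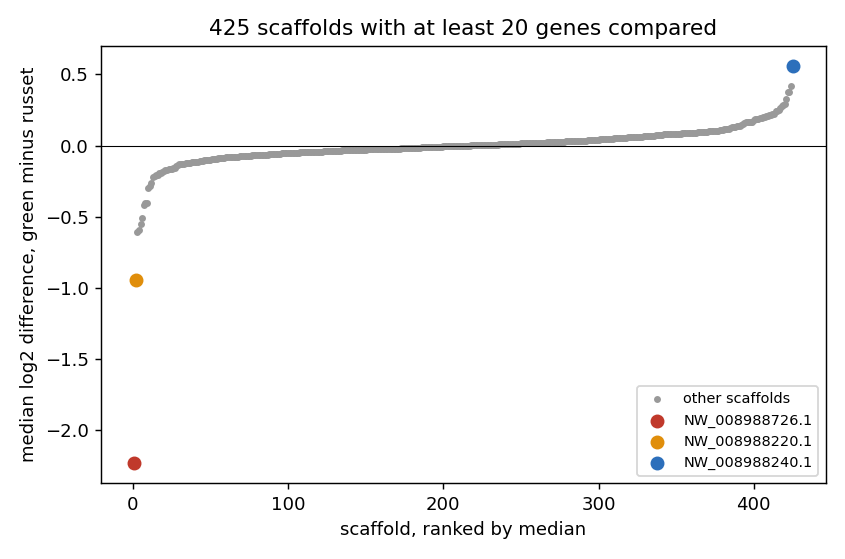
Median log2 difference, green minus russet, on the log2(FPKM + 0.1) scale (vertical axis), of 425 scaffolds with at least 20 genes compared, ranked by that median (horizontal axis). NW_008988726.1, at -2.23, lies apart from the next, NW_008988220.1 at -0.95, and NW_008988240.1 stands at the other end at 0.56.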

How the data were processed

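Fruit skin of green ‘Suisho’ and russet ‘Niitaka’ pear was sequenced, with 6 libraries, 3 of each line. The authors discarded reads of poor quality, aligned the others to the genome of Chinese white pear with HISAT2 2.0.4, assembled transcripts with Cufflinks 2.1.1 and deposited FPKM values for each gene and library, with a table of gene positions and lengths. DESeq 1.18.0 is named in the submitters' processing notes, and its values were not used here, although the paper's pathway table, from which 1 list was taken, was made from genes that it called. The sources used here do not tell which sample of a line is behind column 1, 2 or 3, nor whether the samples came from separate trees, so the spread between them may be technical in part.

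Reads were recovered by multiplying FPKM by gene length. With the deposited length, 74.5% of the 191857 values above 0 came out whole within 0.0001, and with another length for 8439 genes, 3 of them among the 31, all did. Exact intervals and the floor of 3 reads over the green libraries rest on these reads and take each read as independent. Sequencing was paired-end, and the sources used here do not state outright whether both reads of a pair were counted. The paper's clean bases and quality reads per library show that it numbers each read of a pair singly. The highest recovered total, 42729578, is above the number of pairs that its largest library could hold. Both reads of a pair thus appear to have been counted. The intervals are then too narrow and the bounds too strong, even for counting error.

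For the genes that averaged 0.1 FPKM or more, log2(FPKM + 0.1) was fitted by lmFit and eBayes (trended) of limma 3.58.1, under R 4.3.3, as a two-sided test with a Benjamini-Hochberg adjusted p under 0.05 over all 30161 genes, and the script was tested on simulated data. A log2 difference on this scale understates the change of low genes. The fit gave calls for all genes, and those of the scaffold's genes are printed only as counts and as calls kept or lost, since these genes were chosen on the same contrast. No p is given for a gene of the scaffold. Every gene of the scaffold is named, and those that averaged 1 FPKM or more are given library by library. The genes, lists and limits were chosen with earlier results of these data known. Marker lists that need gene descriptions were not applied.

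Deviations of libraries with the same column number from their line mean correlated across genes at 0.20, 0.21 and 0.32, so the number was used as a block in an alternative fit. The sample titles number russet skin 1 to 3 and green skin 2 to 4, so a shared column number need not be a shared sample number, and the pairing rests on these correlations alone. Other alternatives were pseudocounts of 1 and 0.01, no filter, a minimum mean of 1 FPKM, median-ratio and quantile scaling, limma without a trend, limma voom on the recovered reads and leaving out each library. Python 3.11.15 was used for tables and figures, with pandas 2.3.3, numpy 2.4.6, scipy 1.17.1 and matplotlib 3.10.9.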

Additional observations from a re-analysis of the deposited data

How the results depend on the processing

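The median log2 difference of the scaffold's genes, green minus russet, was -2.23 with a spread between libraries of 0.25 (SD). It was -1.41 with a pseudocount of 1, -3.14 with a pseudocount of 0.01, -2.99 over genes averaging 1 FPKM or more and -2.89 with limma voom. The pseudocount sets how far low values count, and the filter at 1 FPKM sets which genes enter, 22 in place of 28. Why the medians moved was not tested. Leaving out each library gave -2.43 to -2.12. None of the 357 differences of single genes under these alternatives turned its direction. Of these, 38 moved by more than the spread between libraries. Among 28 genes, 18 moved with a pseudocount of 1, 11 with a pseudocount of 0.01 and 9 with voom, and none under the other alternatives. The filters leave a gene's difference unchanged, and a pseudocount cannot turn a gene whose libraries do not overlap. With the column number as a replicate block, which the sample titles do not give as a pairing, 6038 of all 30161 genes were called, 3132 of them lower. Without the block 4625 were called, 2427 of them lower. On the scaffold, 23 genes were called lower with and without it. Leaving out each library gave 18 to 19 such genes. Over all 30104 to 30163 genes of these fits, 1666 to 2026 were called lower and 3172 to 3624 in either direction. The alternatives otherwise gave 20 to 23 calls lower on the scaffold, beside 1848 to 2504 calls lower over all genes. The 20 were of 22 genes averaging 1 FPKM or more, beside 1848 of all 23838 such genes. Genes 103935064 and 108866230 lost the call whichever library was left out, 103935058 and 103935070 in 5 of 6 fits and 108866225 in 4. Depth limits the genes with few green reads, for which a share is known at best within its counting interval.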
